A study of Drosophila melanogaster with 2 samples.

Results

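Cytoplasmic ribosomal proteins build the large and the small subunit of the ribosome that translates nuclear messages. The set described here holds the protein-coding genes whose symbol starts with RpL (large subunit, the stalk proteins RpLP included) or RpS (small subunit), which gave 92 of 13968 protein-coding genes, 54 for the large and 38 for the small subunit. The data are chromatin immunoprecipitation followed by sequencing (ChIP-seq) for castor (cas), a zinc-finger transcription factor known for its place in the temporal series of embryonic neuroblasts. The material was whole Drosophila melanogaster embryos of 0 to 24 hours of the strain cas-GFP, which carries a cas-eGFP fusion, and the precipitation used an antibody against GFP. There was 1 group with 2 biological replicates, so no groups of samples were compared and every value below describes that group. Embryos were not dissected or staged further, so a peak is a mixture over their cells, and an input or mock library was not analysed here.

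Ribosomal protein genes are among the most strongly transcribed genes of a growing cell, and their products are needed in near-equal amounts. In flies, many of them are Minute loci, at which loss of 1 copy delays development and thins the bristles. Their promoters commonly lack a TATA box and start transcription at a pyrimidine-rich TCT initiator, in place of the usual initiator. A further promoter element of many Drosophila housekeeping genes is the DNA replication-related element (DRE), bound by the factor Dref.

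A peak was counted for a gene when its summit, the position of its highest signal, lay in the gene body or within 2 kb of it. The main list was the one named conservative, with 1879 peaks on the chromosome arms. Of the 92 ribosomal protein genes, 50 had a peak (54.3%, 95% Wilson interval 44.2 to 64.2), against 20.1% of all protein-coding genes. A summit within 500 bp of an annotated start of the same gene, called an own-start peak below, was found for 41 of the 92 (44.6%, 34.8 to 54.7), against 10.7% of all protein-coding genes. The share of genes with a peak was thus 2.7 times the background by the wide rule and 4.18 times by the own-start rule. These genes are short, with a median length of 1315 bp against 2164.5 bp over all protein-coding genes, so the wide rule scans less sequence at them than at a typical gene. In the list of replicate 1 alone, 30 genes had a peak and 27 an own-start peak, against 14.3% and 7.4% of all protein-coding genes, and in the list of replicate 2 alone 35 and 30 had one, against 14.4% and 7.69%. Intervals here and below cover counting error only, genes and peaks are not replicates, and no test was run on these shares.

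The large subunit had 31 of 54 genes with a peak (57.4%, 44.2 to 69.7) and the small subunit 19 of 38 (50%, 34.9 to 65.2). Own-start peaks were found for 27 of 54 large-subunit genes (50%, 37.1 to 62.9) and 14 of 38 small-subunit genes (36.8%, 23.4 to 52.7). The intervals of the subunits overlap under both rules. With the list of replicate 1 alone the shares with a peak by the wide rule were 37.0% of the large and 26.3% of the small subunit, and with that of replicate 2 alone 38.9% and 36.8%. All 4 of these shares, with their intervals, lay above the share of all protein-coding genes.

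**Figure D1:**
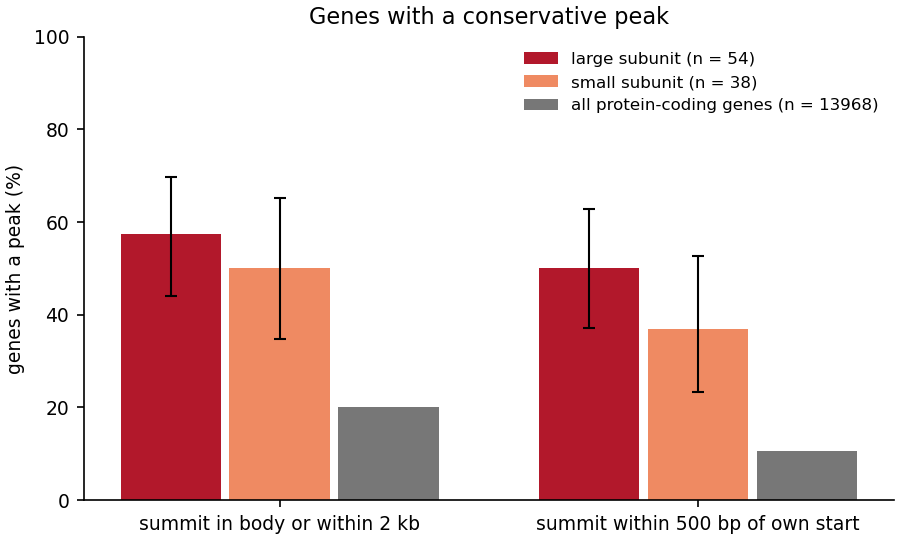
Share of genes with a conservative peak (%, vertical axis from 0) under each rule of assignment, for large-subunit, small-subunit and all protein-coding genes. Whiskers are 95% Wilson intervals over genes. Both subunits lie above all genes, at 57.4% and 50% against 20.1% by the wide rule and at 50% and 36.8% against 10.7% by the own-start rule.

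The DNA around the starts of several members is shown for the members with the strongest own-start peaks, for duplicated genes and for examples of the DRE words counted below. Each line runs 5′ to 3′ on the strand of the gene, from 100 bases before the transcript start to 20 bases into the transcript, and was read from the RefSeq Release 6 genome (dm6). The start is the annotated one nearest the strongest own-start summit, or the most upstream one for genes without an own-start peak. Capitals mark the DRE core TATCGA or its reverse complement TCGATA, which overlap in TATCGATA, and CTTT near the start, the core of the TCT initiator. The first 3 are the members with the strongest own-start peaks, whose summits lay at +19 (RpL7), -112 (RpL32) and -40 (RpL14) from the start.
RpL7 (chr2L:10200904-10201023, plus strand): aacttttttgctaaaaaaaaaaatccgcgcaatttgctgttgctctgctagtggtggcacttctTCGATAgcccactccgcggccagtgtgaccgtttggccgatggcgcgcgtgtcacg
RpL32 (chr3R:30046142-30046261, minus strand): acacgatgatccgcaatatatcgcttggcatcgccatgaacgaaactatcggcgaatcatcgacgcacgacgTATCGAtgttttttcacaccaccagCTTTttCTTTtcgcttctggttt
RpL14 (chr3L:8600906-8601025, plus strand): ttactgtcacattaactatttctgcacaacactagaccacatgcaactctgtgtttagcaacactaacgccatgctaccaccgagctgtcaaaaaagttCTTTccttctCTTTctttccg
The next 2 carry the whole TATCGATA and an own-start peak, with summits at 0 (RpS12) and -51 (RpS25).
RpS12 (chr3L:13023252-13023371, plus strand): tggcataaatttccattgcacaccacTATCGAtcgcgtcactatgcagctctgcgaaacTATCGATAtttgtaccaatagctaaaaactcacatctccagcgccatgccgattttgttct
RpS25 (chr3R:11216268-11216387, minus strand): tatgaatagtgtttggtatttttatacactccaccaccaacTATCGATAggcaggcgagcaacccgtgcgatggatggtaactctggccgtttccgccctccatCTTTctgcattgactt

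Duplicated genes follow as pairs, the member with an own-start peak first and the one without it second, since the copies encode near-identical or related proteins from different promoters.
RpL10Ab (chr3L:11822751-11822870, plus strand): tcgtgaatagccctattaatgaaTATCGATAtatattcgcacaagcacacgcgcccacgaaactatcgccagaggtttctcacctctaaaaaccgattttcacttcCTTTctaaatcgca
RpL10Aa (chr3R:15037266-15037385, plus strand): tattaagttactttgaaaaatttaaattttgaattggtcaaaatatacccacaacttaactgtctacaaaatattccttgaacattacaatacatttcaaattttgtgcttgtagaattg
RpS28b (chrX:9554523-9554642, plus strand): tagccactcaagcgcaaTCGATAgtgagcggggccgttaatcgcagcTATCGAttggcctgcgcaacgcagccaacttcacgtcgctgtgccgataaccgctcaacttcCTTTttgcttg
RpS28a (chr3R:30022629-30022748, minus strand): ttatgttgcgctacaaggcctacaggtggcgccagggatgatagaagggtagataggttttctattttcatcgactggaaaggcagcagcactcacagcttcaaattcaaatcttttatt
RpS19a (chrX:16637794-16637913, plus strand): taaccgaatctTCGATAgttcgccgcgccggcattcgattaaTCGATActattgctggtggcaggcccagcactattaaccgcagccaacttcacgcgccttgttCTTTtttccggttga
RpS19b (chr3R:23933511-23933630, minus strand): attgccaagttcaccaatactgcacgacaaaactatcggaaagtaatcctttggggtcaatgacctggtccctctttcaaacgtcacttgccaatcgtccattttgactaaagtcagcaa
These 3 pairs were picked for display after their values were seen. Their members with the peak hold the DRE core within the lines shown and the members without it do not, though RpS28a holds it elsewhere in its wider promoter. Over the 9 families in which exactly 1 member had an own-start peak, the core was in the promoter (250 bases before to 50 after the start) of 7 of 9 members with the peak and of 5 of 10 without it. The word was also present without a peak, as in the next 3 lines, of which RpS14a had no entry at its start in the ranked list either.
RpS14a (chrX:7933642-7933761, plus strand): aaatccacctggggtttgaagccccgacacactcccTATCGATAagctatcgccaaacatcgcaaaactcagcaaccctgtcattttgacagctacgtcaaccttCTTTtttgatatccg
RpS10b (chrX:19597931-19598050, plus strand): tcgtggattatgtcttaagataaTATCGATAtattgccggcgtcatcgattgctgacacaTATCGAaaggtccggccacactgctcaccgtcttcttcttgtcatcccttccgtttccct
RpL24-like (chr3R:11431563-11431682, minus strand): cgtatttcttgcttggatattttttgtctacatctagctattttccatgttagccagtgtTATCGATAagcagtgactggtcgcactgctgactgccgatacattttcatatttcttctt

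Peak height is given as the authors' own signal value of each peak, which is not scaled between lists and was used only to describe and rank peaks. The 61 distinct peaks of ribosomal protein genes had a median signal of 74.8, against 77.3 over all conservative peaks (range 2.07 to 1218). Above the median of the list stood 26 of the 61 (42.6%), and 21 of the 45 own-start peaks (46.7%). The best rank of an own-start peak was 172 of 1879. Peaks at these starts were thus frequent and of ordinary height. Taking the strongest own-start peak of each gene, signal was between 49.1 and 187.1 with a median of 78.5 over 41 genes. The median was 78.5 for 27 large-subunit genes and 76.8 for 14 small-subunit genes. All peaks within 500 bp of any protein-coding start, ribosomal protein peaks included, had a median of 82.3 over 1109 peaks.

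Among large-subunit genes, RpL7 had the strongest own-start peak, of 127 bp at chr2L:10200970-10201096 with the summit in the 5′ UTR, 19 bp into the transcript. Its signal was 187.1 in the conservative list, 66.3 in replicate 1 and 119.4 in replicate 2. RpL32, whose messenger is a common reference in fly expression work, had a peak at chr3R:30046118-30046427 with signals of 184.1, 93.6 in replicate 1 and 88.1 in replicate 2. The replicates thus lay close at RpL32 and apart at RpL7, where replicate 2 was higher. RpL14 (chr3L:8600811-8601120) had 173.2, with 72.6 in replicate 1 and 93.9 in replicate 2. RpL23A (chr3L:1668616-1668925), a protein near the exit of the nascent peptide, had 164.8, with 57.1 in replicate 1 and 110.7 in replicate 2, its summit 117 bp upstream. The gap between the replicates was thus wider at RpL23A than at RpL14. RpL34b (chr3R:9401195-9401504) had 136.7, with 67.4 and 70.6 in replicates 1 and 2. RpL22 (chrX:765057-765366), an RNA-binding protein of the large subunit, had 115.9, with 50.6 and 67.6. At RpL34b and RpL22 replicate 2 was higher by a smaller step than at RpL23A. RpL31 had a peak of 175.1 (108.3 in replicate 1, 69.3 in replicate 2), but its summit lay at -112 bp from the start of CG1827 and 949 bp beyond the end of RpL31. The own-start peak of RpL31, 26 bp upstream, had 82.9.

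Among small-subunit genes, RpS27 had the strongest own-start peak, of 108 bp at chr3R:25247475-25247582 with the summit 34 bp upstream, with a signal of 165.4, 50.2 in replicate 1 and 120.8 in replicate 2. RpS28b (chrX:9554532-9554618, 87 bp wide) had 133.9, with 36.9 in replicate 1 and 101.6 in replicate 2. RpS12 (chr3L:13023197-13023506), known in flies for its part in cell competition between Minute and wild-type cells, had 113.9, with 44.3 and 72.6. In all 3 of these genes replicate 2 was the higher. The genes with the lowest signal in their strongest peak were also in this subunit, RpS15Aa with 54.1, RpS5a with 51.1 and RpS7 with 49.1. RpS7 had 23.8 in the ranked list of replicate 1 and 26.4 in replicate 2. None of the 3 passed in the list of either replicate, and the peak of RpS5a overlapped no entry in the ranked list of replicate 2. RpS5a was also the 1 case of 62 gene and peak pairs with a summit in a coding exon.

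Some strong peaks within 2 kb of a ribosomal protein gene were not at its start. RpL3, a protein close to the peptidyl transferase centre, was assigned a peak at chr3R:11226599-11226731 with a signal of 260.7 (145.3 in replicate 1, 117 in replicate 2), 1483 bp from the gene and -106 bp from the start of CG17726. That signal therefore belongs to a summit nearer to another gene's start. Of the 50 genes with a peak, 38 (25 large, 13 small) had a summit within 500 bp of their own start that was nearest to that start. In 3 genes the own-start summit was nearer to another gene, among them RpL41 (nearer to NaCP60E) and RpS20 (nearer to CG17271). The other 9 had summits only farther away, among them RpL3, RpL35, RpL39, RpL8, RpS13, RpS15Ab, RpS3 and RpS5b. For RpL35 the summit lay at -508 bp, just beyond the window, and at -81 bp from the start of Rab18. RpL39 shared its peak with RpL12, at whose start the summit lay, and this was the 1 peak assigned to a pair of members. At the edge of the wide rule, RpL8 (1787 bp) and RpS5b (1997 bp) lay just inside, and RpS10b (4349 bp), RpLP1 (5056 bp) and the RpS28-like gene (5460 bp) came next outside. The peak assigned to RpL8 had a signal of 67.4 (35.9 in the ranked list of replicate 1, 28.3 in replicate 2) and that assigned to RpS5b 74.2 (31.3 and 37.3). At their own starts, RpS10b had 47.7 in the combined ranked list (22.1 and 34.0) and RpLP1 43.4 (26.4 and 17.7). Neither start had a peak in the conservative list or in that of either replicate, but RpLP1 had one in the pooled list.

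Summits sat close to the transcript start. The strongest own-start summit of each gene lay at a median of -32 bp (negative is upstream; quartiles -60 and -1, range -214 to 210, n = 41), against -95 bp (quartiles -163 and -29, n = 1109) for the summits at most 500 bp from any protein-coding start. The median for the ribosomal protein genes was -49 bp with the list of replicate 1 alone, -42 bp with that of replicate 2 alone and -42 bp for peaks with the IDR score (a measure of reproducibility) at its ceiling. Within 50 bp of the start lay 25 of 41 ribosomal protein summits (61.0%), against 19.5% of all such summits. Within 100 bp lay 35 of 41 (85.4%), against 45.9%. Upstream of the start lay 31 of 41 (75.6%), against 82.1%. The median was -42 bp for the large subunit (n = 27, range -214 to 62) and -13 bp for the small subunit (n = 14, range -205 to 210), with overlapping ranges. Over all 62 gene and peak pairs, 34 summits lay upstream of the gene, 14 downstream, 13 in the 5′ UTR and 1 in a coding exon, and none lay in an intron or a 3′ UTR.

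**Figure D2:**
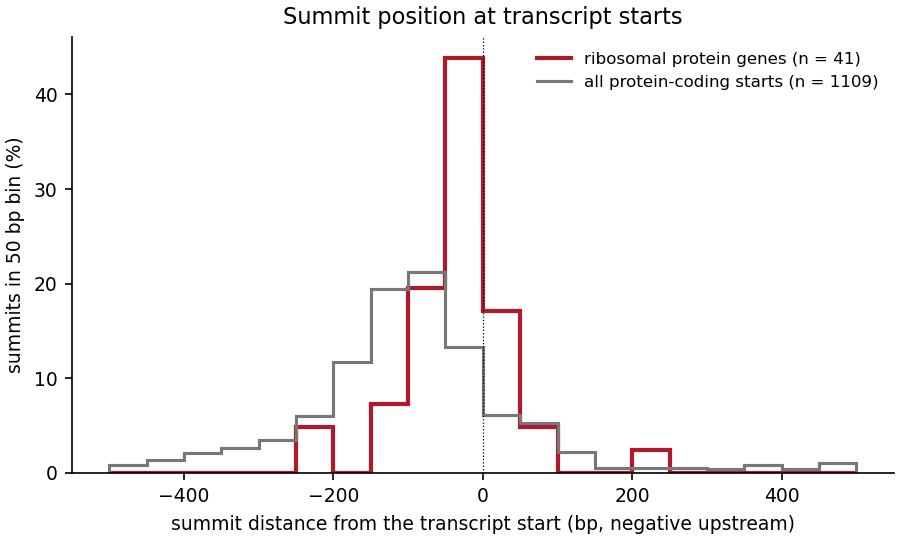
Distance of the summit from the transcript start (bp, negative upstream, horizontal axis) as the share of summits per 50 bp bin (%, vertical axis), for the strongest own-start summit of 41 ribosomal protein genes and for the 1109 summits at most 500 bp from any protein-coding start. The ribosomal protein summits peak in the bin just upstream of the start (median -32 bp) and all summits farther upstream (median -95 bp).

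The replicates gave own-start sets of similar size that overlapped in part. Of the 92 genes, 18 had an own-start peak in the lists of both replicates, 9 in that of replicate 1 alone and 12 in that of replicate 2 alone. Of the 61 conservative peaks of ribosomal protein genes, 24 overlapped a peak in both replicate lists (39.3%), 12 in replicate 1 alone, 13 in replicate 2 alone and 12 in neither (19.7%). Over all conservative peaks the share was 41.1% in both and 27.0% in neither. The own-start genes without a peak in either replicate's list were RpL12, RpL27, RpS15Aa, RpS27A (made as a fusion with ubiquitin), RpS5a and RpS7. In the 24 peaks found in both, the log2 ratio of the signal in replicate 1 over replicate 2 had a median of -0.22 with an SD of 0.51, against a median of -0.01 with an SD of 0.43 over 772 conservative peaks. Signal was somewhat higher in replicate 2 at these peaks, by less than 1 SD of the ratios. Some neighbouring conservative entries, as at RpS21 and near Sry-delta, overlapped the same replicate peaks. Their replicate values therefore enter these counts and ratios more than 1 time.

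**Figure D3:**
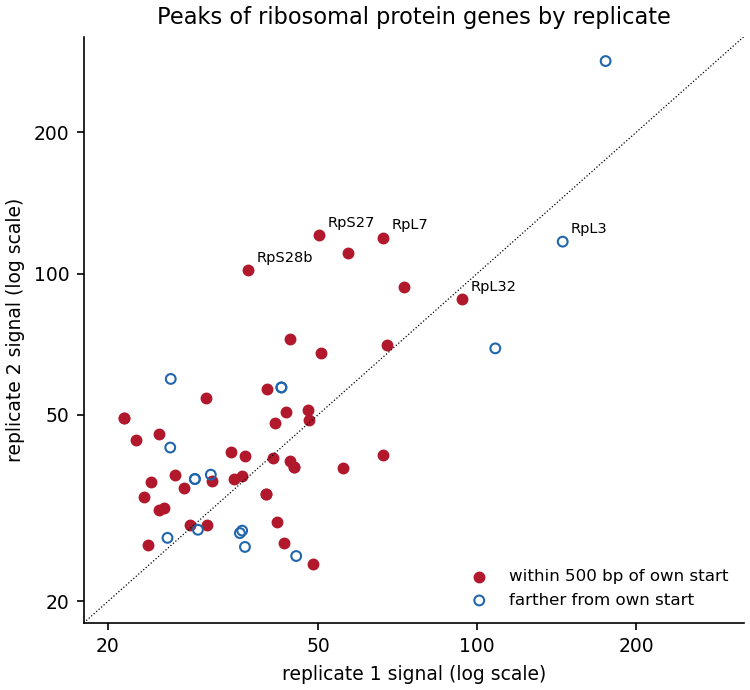
Signal of each peak of a ribosomal protein gene in the ranked list of replicate 1 (horizontal, log scale) and of replicate 2 (vertical, log scale), for the 60 of 61 peaks with an entry in both. Filled points are own-start peaks, open points lie farther away, and the dotted line marks equal signal. RpL3 stands high with a summit at a neighbouring gene, and RpS27 and RpS28b lie well above the line (120.8 against 50.2 and 101.6 against 36.9, replicate 2 first).

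The pooled list, which also combines both replicates, had an own-start peak for 46 of the 92 genes, against 12.3% of all protein-coding genes. It added RpL15, RpL18, RpL3, RpL8, RpLP1, RpLP2 and RpS4, and lacked RpS15Aa and RpS7. RpLP1 and RpLP2 form the acidic stalk that binds elongation factors together with RpLP0. RpLP0 itself had an own-start peak of 99.97 in the conservative list (40.0 in the ranked list of replicate 1, 56.8 in replicate 2). All 3 stalk genes thus had an own-start peak in the pooled list, and 1 of them in the conservative list.

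Below the threshold, most starts without a conservative peak had a ranked entry, at members and over all such genes. The ranked list is long, with 104609 entries on the arms, so an entry near a start is common. The ranked list, which also holds entries that did not pass, had an entry within 500 bp of a start for 41 of the 51 members without an own-start peak (80.4%), with a median signal of 34.8 (range 8.28 to 75.9). Over all protein-coding genes without an own-start peak it had one for 73.4%, with a median of 23.4. The same order held in the list of each replicate alone, where the members' median was 19.9 in replicate 1 and 20.4 in replicate 2 and that of all such genes 14.4 and 13.8. At the top of this range stood RpL13A with 75.9 and RpL3 with 74.96. Some entries had a very low -log10 IDR, as at RpL35A (0.04), RpL13 (0.09) and RpL39 (0.09), where thresholded entries had at least 2. No ranked entry of the combined list lay at the starts of 10 members, among them RpL5, which forms the 5S ribonucleoprotein with RpL11, while RpL11 had an own-start peak of 91.1 (48.0 in replicate 1, 48.8 in replicate 2).

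Duplicated genes allow a comparison of promoters that serve near-identical or related proteins. There were 13 families with 27 members, of which 13 members had an own-start peak. In 9 families exactly 1 member had it, in 2 families (RpL34 and RpLP0) both had it, and in 2 (RpS10 and RpS14) none had it. Among 65 single-copy genes 28 had an own-start peak (43.1%). The RpL37 pair, whose symbols end in numbers and not in a letter or -like, was named after its values were seen.

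RpL10Ab, the uL1 protein of the lateral stalk, had 76.1 at its start, in replicate 1 24.9 and in replicate 2 45.5, and RpL10Aa had no combined entry and 7.48 in the ranked list of replicate 2. RpL22 had 115.9, against 24.3 in the ranked list for RpL22-like (no entry in replicate 1, 15.4 in replicate 2), known for its expression in the testis. RpL7 had 187.1, against 34.8 in the ranked list for RpL7-like (20.6 in replicate 1, 10.5 in replicate 2). RpL24 had 86.1 (41.1 and 40.4 in replicates 1 and 2), against 25.99 for RpL24-like (19.4 and 14.8). RpL7-like and RpL24-like resemble the yeast assembly factors Rlp7 and Rlp24 and are not thought of as parts of the mature ribosome. RpLP0-like, which resembles the yeast factor Mrt4, was the exception among the -like genes, with an own-start peak of 78.5 (30.7 in replicate 1, 54.4 in replicate 2). RpL37-1 had 69.3 at its start (34.7 and 36.4 in replicates 1 and 2), and RpL37-2, which has 1 exon, had no entry in the combined ranked list and 9.70 in that of replicate 2.

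In the small subunit, RpS28b had 133.9 at its start, against 40.9 in the ranked list for RpS28a (15.5 and 23.7 in replicates 1 and 2) and no combined entry for RpS28-like (9.71 in the ranked list of replicate 2). RpS19a had 56.4 (27.8 and 34.9), against 44.5 for RpS19b (32.9 in replicate 1, no entry in replicate 2). In replicate 1 the order of the RpS19 copies was thus reversed, with RpS19b the higher. RpS5a had 51.1 at its start (26.7 and 32.1 for the strongest entries near the start in replicates 1 and 2), against 23.3 for RpS5b (8.42 in replicate 1, no entry in replicate 2). RpS5b and RpS19b are known for expression in the germ line. RpS15Aa had 54.1 (23.5 and 33.3), against 27.5 for RpS15Ab (14.9 and 14.7). The gap between the copies was narrowest in the RpS19 family and widest in RpS28 among these 4 families. RpL34a had 75.3 (41.9 and 29.5), beside 136.7 for RpL34b, which was the higher copy in both replicates. Of the 6 members with a single exon block, duplicated or not, 0 had an own-start peak in the conservative list, against 41 of the 86 others. Among the 6, RpLP2 had one in the pooled list. The share over all protein-coding genes with a single exon block was not counted, so this is not shown to be particular to the members.

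**Figure D4:**
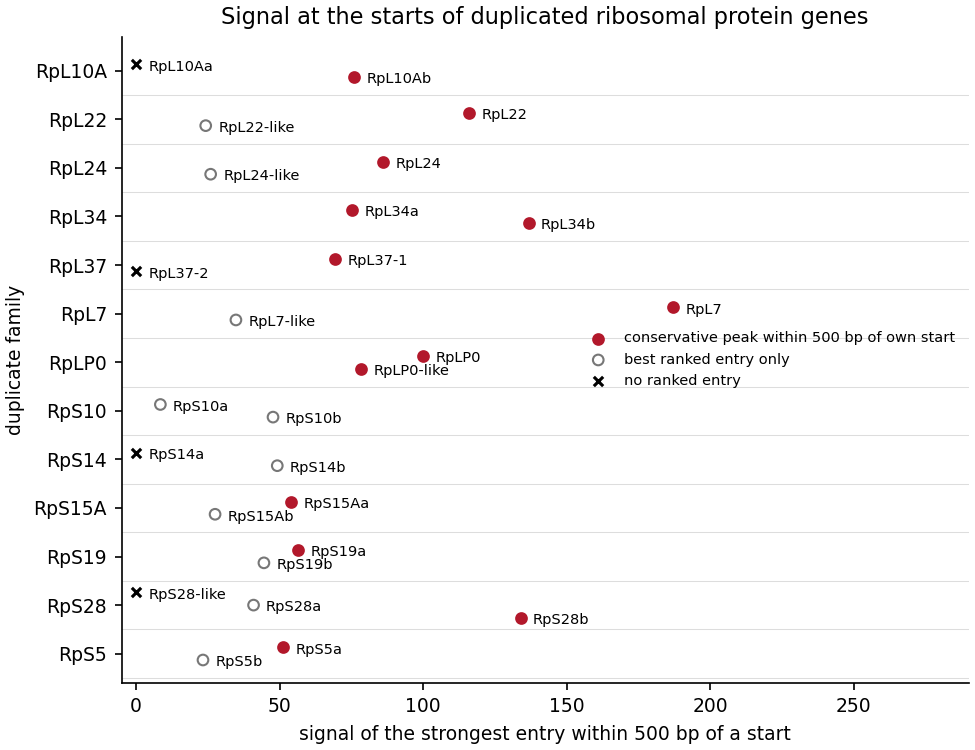
Signal of the strongest entry within 500 bp of a start (horizontal axis, linear) for the 27 members of 13 duplicate families (rows). Filled points are own-start peaks of the conservative list, open points are entries of the ranked list that did not pass, and crosses mark no ranked entry. In 9 of 13 rows exactly 1 member is filled, as in RpS28 (133.9 for RpS28b, 40.9 for RpS28a).

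Words of DNA were counted from 50 bp before to 50 bp after each summit, on both strands. TATCGA was in 16 of 45 own-start windows (35.6%, 23.2 to 50.2), against 12.7% of the 1109 windows near any protein-coding start and 9.53% of all conservative windows. TATCGATA was in 24.4%, against 4.33% near any start. CGATAG, which overlaps TATCGATAG, was in 31.1%, against 10.8%. DRE words were thus the more frequent at ribosomal protein summits. Summits nearer the start held the word more often in general. Among summits within 50 bp of a start, 9 of 25 ribosomal protein windows held TATCGA (36%, 20.2 to 55.5), against 25.9% of all 216 such windows (20.5 to 32.2), and these intervals overlap. TATCGATA was in 24% (11.5 to 43.4) against 11.1% (7.58 to 16.0), and CGATAG in 32% (17.2 to 51.6) against 23.6% (18.4 to 29.7). The intervals overlap for these words too. Base composition also moved with position, with a mean GC content of 45.2 ± 7.53% (SD, n = 45) in own-start windows and 35.8 ± 10.9% (n = 1109) near any start, and of 45.8 ± 6.64% (n = 25) and 42.9 ± 9.56% (n = 216) within 50 bp. The part of distance and base composition in the word counts was not tested further.

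Other words were found in fewer of the own-start windows. GGTCACAC, the core of the promoter element Motif 1 that the factor M1BP binds, was in 3 of 45 (6.67%), against 1.71% near any start. CACGTG, the E-box bound by Myc and Max, was also in 3 (6.67%), against 1.44%. GAGAG, bound by the GAGA factor Trl, was in 3 of 45 as well, against 9.11%. TATAAA was in 8.89%, against 21.3%, and the A and T words ATAAAAA and ATTTTA in 15.6% and 20%, against 13.0% and 32.0%. These shares also moved with position. Among summits within 50 bp of a start, TATAAA was in 8% of 25 ribosomal protein windows, against 11.1% of all 216. For ATAAAAA it was 8% against 8.80% and for ATTTTA 12% against 19.9%, and the intervals overlap for all 3 words. In promoters, TATAAA was in 43.9% of members with an own-start peak, against 45.8% of all protein-coding genes. Counts of 3 or 4 of the 45 own-start windows leave wide intervals, and for GAGAG that interval (2.29 to 17.9) holds the share near any start.

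**Figure D5:**
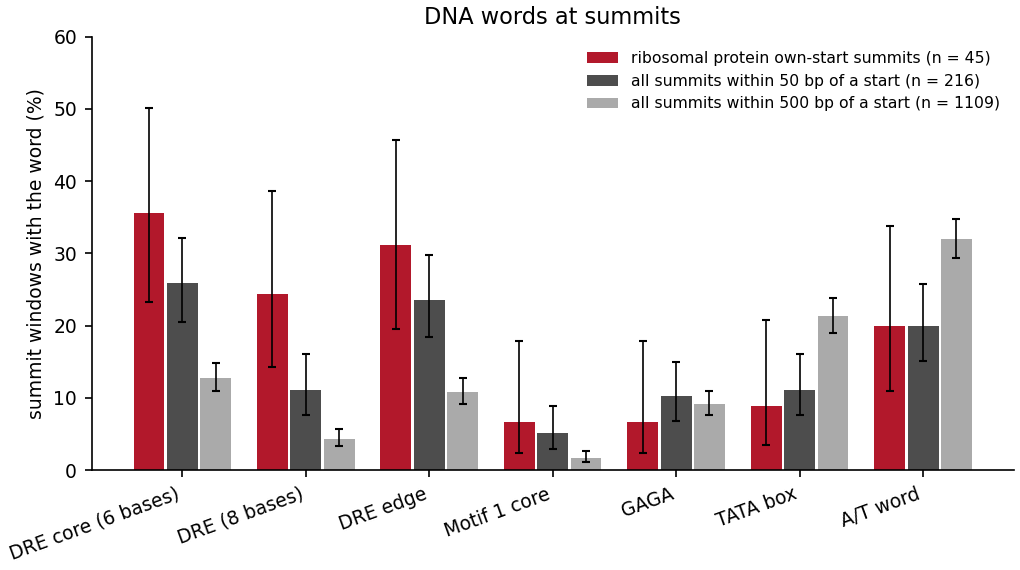
Share of summit windows (50 bp on either side) that hold a word (%, vertical axis from 0) for the 45 own-start summits of ribosomal protein genes, the 216 summits at most 50 bp from any protein-coding start and the 1109 at most 500 bp away. Whiskers are 95% Wilson intervals over windows, the label DRE edge stands for CGATAG and A/T word for ATTTTA. The DRE core stands at 35.6%, 25.9% and 12.7% in these sets, and the TATA box at 8.89%, 11.1% and 21.3%.

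In promoters, taken over the same 250 bases before to 50 after the start, TATCGA was in 28 of 41 members with an own-start peak (68.3%, 53.0 to 80.4) and in 20 of 51 without one (39.2%, 27.0 to 52.9). Over all protein-coding genes it was in 39.0% of 1491 promoters with an own-start peak and in 27.7% of all 13968. The longer TATCGATA differed less within the family, at 34.1% of the members with a peak and 27.5% of those without, against 9.36% of all promoters. The height of the peak did not follow the word: own-start peaks with TATCGA in the window had a median signal of 76.1 (n = 16) and those without it 75.7 (n = 29). The TCT core CTTT within 10 bases of the most upstream annotated start was found in 48 of 92 members (52.2%), in 51.2% of those with an own-start peak and 52.9% of those without one, against 10.8% of all protein-coding genes. For some members, among them RpL9, RpLP0, RpS15Aa, RpS7 and RpS5a, the start nearest the summit is another one and differs in whether it has the word, so the shares with and without a peak depend on the start chosen. A match is a description of the letters only.

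Gene structure and surroundings were compared in the same way. Small nucleolar RNA genes, which guide the modification of ribosomal RNA, lie inside 28 members, of which 15 had an own-start peak, against 26 of 64 without such a gene inside. Of 55 members with a start of another gene head to head within 1 kb, 26 had an own-start peak, against 15 of the 37 others. Shares over all protein-coding genes with such a structure were not counted, so neither comparison is shown to be particular to the members. Members with an own-start peak stood on every large arm, 9 of 19 on 2L, 9 of 21 on 2R, 6 of 14 on 3L, 10 of 23 on 3R and 7 of 14 on X. The single member on chromosome 4, RpS3A, had none. No large arm stood apart in these counts. Over all protein-coding genes, 2 of 80 on chromosome 4 had a peak by the wide rule. On the large arms it was 518 of 2657 (2L), 575 of 2852 (2R), 598 of 2739 (3L), 718 of 3421 (3R) and 397 of 2196 (X).

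Genes that work with the ribosome were counted by the same rules. Both ribosomal proteins with other symbols had own-start peaks, sta of the small subunit with 60.7 (31.6 and 28.4 in replicates 1 and 2, summit at +54) and Rack1, a scaffold on the small subunit, with 77.9 (40.7 and 36.4, summit at +22). Of 7 translation elongation factor genes, 3 had an own-start peak, among them eEF1gamma (106.1, summit at -29) and eEF5 (82.8, summit at +34), while eEF2 had no peak. Of 23 ribosome biogenesis genes, 5 had an own-start peak (21.7%), the strongest at eIF6, which keeps the subunits apart, with 413.6 (150.4 in replicate 1, 260.2 in replicate 2). Mitochondrial ribosomal protein genes, which serve the ribosome of the organelle, had own-start peaks at 14 of 73 (19.2%), against 44.6% of the cytoplasmic set and 10.7% of all protein-coding genes. Of 5 transcription regulators picked for comparison, M1BP and Trl had an own-start peak, against 10.7% of all protein-coding genes. By the wide rule M1BP (59.4), Trl (464.1) and Trf2 (174.6) had a peak, against 20.1% of all protein-coding genes, and Dref and Myc had none. In each of these 3 the strongest summit was nearer to another gene's start (CG8202, CG42507 and lawc).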

How the data were processed

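ChIP-seq for cas-eGFP was carried out in whole embryos in 2 biological replicates, whose numbers come from the labels. The deposited peak lists are on dm6. The deposited README texts name, for every list, the alignments of its replicates and other files (not used here) as its source. Aligner and peak caller: not given in the sources used here. As deposited, the signal is the authors' peak height, and the deposited score is the scaled irreproducible discovery rate (IDR), at most 1000. The ranked lists of the authors hold IDR as -log10 values up to 5, and thresholded entries had at least 2. Read totals are not in the lists, so depth is unknown.

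Genes, transcripts and starts came from Ensembl release 115, and sequence from RefSeq Release 6. A replicate peak was matched to a combined peak by an overlap of at least 1 bp. Shares have 95% Wilson intervals. A share of all protein-coding genes or of all summits includes the ribosomal protein genes. A promoter ran from 250 bases before to 50 after the most upstream start. The code was tested on simulated summits. Python 3.11.15 with numpy 2.4.6, pandas 2.3.3 and matplotlib 3.10.9 was used.

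The genes, lists and words were chosen with earlier results of these data known. Beyond counts, values are given for the 12 genes with the strongest peaks, duplicate pairs with a peak (symbols that differ in a final a or b, or -like), the 3 genes just inside and just outside 2 kb and the 3 weakest peaks, except that some members are counted but not reported here by name. Alternatives were the pooled list, each replicate alone, stricter thresholds, other assignment rules, windows and overlaps.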

Additional observations from a re-analysis of the deposited data

How the results depend on the processing

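Across 9 measures and 64 alternatives, 41 values stayed within the limits set and 23 moved. The limits were wide: with replicate 2 alone, falls from 50 to 35 genes with a peak and from 41 to 30 own-start genes were counted as staying. With the upper 50% of peaks by signal, 24 ribosomal protein genes had a peak, 27.8% of the large and 23.7% of the small subunit, against 11.9% of all protein-coding genes. With the same setting 21 had an own-start peak, and 76.9% of the peaks lay in both replicate lists. For these last values the shares over all genes and over all upper 50% peaks are not given, so neither is shown to be particular to the members. Each replicate's list alone gave 30 to 35 genes with a peak, 37.0% to 38.9% of the large and 26.3% to 36.8% of the small subunit, against 14.3% to 14.4% of all genes, and 27 to 30 own-start genes. Giving a summit to the nearest start only left 46.3% of the large subunit, 34.2% of the small subunit and 11.0% of all genes. All genes stood at 22.8% with the pooled list, 16.7% with the IDR score at its ceiling and 14.7% with a margin of 500 bp. The median distance was -42 bp at the IDR ceiling, -40 bp in the upper 50%, and -49 to -42 bp in single replicates. Over all 61 peaks of ribosomal protein genes, own-start or not, TATCGA was in 32.8% of the summit windows used above. With windows of 51 bp it was in 19.7% of them. The share over all conservative summits with the shorter window is not given, so this fall is not shown to be particular to the members. The share above the list median ranged from 32.4% to 51.4%. Fewer peaks or a shorter window lower such counts by construction; the cause of the shift in distance was not tested. No paired analysis was possible because there is 1 group. Depth is unknown, so an absent peak is not shown to be absent binding.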

Other observations

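At 3 own-start positions the conservative list held a second entry of very low signal beside a strong one. These were RpL17 (2.07, the lowest signal of the whole list, beside 75.7), RpL9 (5.28, beside 56.1) and RpS21 (8.25, beside 81.3). Each low entry overlapped the same replicate peaks as its stronger neighbour. Downstream of RpL17 an entry of 13.5 lay beside one of 60.9, and near Sry-delta, within 2 kb of RpL32, one of 12.1 lay beside one of 100.4.

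Among the peaks of ribosomal protein genes, 5 of 61 (8.20%) were narrower than the common width of 310 bp, against 9.10% of all conservative peaks. Among them were the peaks assigned to RpL3 (133 bp), RpL7 (127 bp), RpS27 (108 bp) and RpS28b (87 bp), and all 5 belong to the 12 genes with the strongest peaks. The share of narrow peaks among the strongest peaks of the whole list is not given here. A link of width and signal is thus not shown to be particular to the members.

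Of the 92 members, 7 lay more than 100 kb from every conservative summit (7.61%), against 10.4% of all protein-coding genes. RpL15 (chr3L:27267255-27268445) was the farthest, 4388 kb away, followed by RpL38 (1458 kb), RpS3A (960.1 kb), RpL5 (664.8 kb), RpL21 (379.6 kb), RpL10 (214.3 kb) and RpL22-like (129.2 kb). RpL15 nevertheless had an own-start peak in the pooled list.

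RpL13A had a ranked entry of signal 75.9 at its start with a -log10 IDR of 3.14, above the value of 2 that thresholded entries had, but no conservative or pooled peak there.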
